A study of Mus musculus with 6 samples.

Results

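The genes described here encode the proteins of the cytosolic ribosome, the particle that translates messenger RNA. They were taken from the table of all genes as the protein-coding symbols that begin with Rpl (large subunit) or Rps (small subunit) and a digit, plus Rplp0, Rplp1, Rplp2 and Rpsa, without pseudogenes and Rps6k kinases. The rule found 86 genes among 41126 rows, 34 with small-subunit and 52 with large-subunit symbols, and Cuffdiff quantified all 86 in every library. Of these, 77 are the canonical ribosomal protein genes. The other 9 are 8 paralogs (Rpl3l, Rpl7l1, Rpl10l, Rpl22l1, Rpl36al, Rpl39l, Rps27l and Rps27rt) and Rps19bp1, which by its name encodes a protein that binds Rps19 and is not itself a ribosomal protein.

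RNA-seq was performed on 6 cultures of ventral dermal fibroblasts from mice of mixed CD1, C57Bl6 background at postnatal day 4. The 3 Control cultures are labelled AdGFP with the genotype +/+, and the 3 gain of function (GOF) cultures AdCre with Ctnnb1 Δex3/+, in which Cre removes exon 3 of Ctnnb1 and so stabilizes β-catenin, the effector of canonical Wnt signaling. The labels' treatment protocol nevertheless gives adCre at 366 to 500 MOI for 6 h for every culture. The paper instead describes Control cells that carry the Ctnnb1 Δex3 allele as well and received Adenovirus-GFP. On the paper's account the groups differ in the virus, Cre and β-catenin together. The titles name 4 animals: 1 gave Control replicate 0 and GOF replicate 2, another gave Control replicate 2 and GOF replicate 0, and Control replicate 1 and GOF replicate 1 came from 1 animal each. For the animals with both cultures the labels thus give +/+ and Δex3/+ to cultures of the same animal, which conflicts with the titles. The libraries held 35980831 to 42834467 fragments. Axin2, a direct target of β-catenin, was at 0.136 to 0.177 FPKM (fragments scaled to the length of the transcript and the size of the library) in the Control libraries and at 14.4 to 19.2 FPKM in the GOF libraries, whereas the Ctnnb1 transcript as a whole did not pass the test (log2 fold change -0.05). Of the fibroblast genes, Vim was at 719 FPKM or more and Dcn at 251 FPKM or more in every library, and Krt5 and Krt14 of keratinocytes were at or near 0. Mean Vim was higher in GOF (1339 against 798 FPKM) and mean Dcn lower (330 against 1058 FPKM). The fibroblast genes Pdgfra and Lum reached down to 15.2 and 11.3 FPKM, both in GOF replicate 2.

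Ribosomal protein genes are transcribed together with ribosomal RNA synthesis as cells grow, and their products are needed in near-equal numbers. Their messenger RNAs typically begin at a C followed by a run of pyrimidines, the terminal oligopyrimidine (TOP) tract, through which mTOR signaling controls their translation. Several members have duplicated relatives that are expressed in particular tissues or states, and the mouse genome holds a very large number of processed pseudogenes of this family.

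RefSeq start sites on GRCm38.p6 were available for 66 of the 86 genes. In the 30 bases from 10 before to 20 after the start, 33 of the 66 genes held a run of at least 7 pyrimidines (C or T on the strand of the gene), against 20.5% of 26959 other genes. Runs of at least 10 were held by 27.3% and 5.54%. Runs of 7 or more purines (A or G), which are the same letters on the opposite strand, went the other way, with 6.06% and 23.5%. The windows of genes the results below turn on are shown to set canonical genes beside relatives, with the longest pyrimidine run in capitals.
Rps18, chr17:33955646-33955675, minus strand: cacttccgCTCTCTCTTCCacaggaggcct
Rps10, chr17:27635225-27635254, minus strand: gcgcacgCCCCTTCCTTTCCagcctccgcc
Rps27, chr3:90213629-90213658, minus strand: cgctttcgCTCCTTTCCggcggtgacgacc
Rpl39, chrX:37085203-37085232, minus strand: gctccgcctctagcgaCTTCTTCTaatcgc
Rpl36a, chrX:134585644-134585673, plus strand: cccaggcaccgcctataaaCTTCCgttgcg
Rpl22l1, chr3:28805498-28805527, plus strand: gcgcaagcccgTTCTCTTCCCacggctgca
Rps27l, chr9:66946076-66946105, plus strand: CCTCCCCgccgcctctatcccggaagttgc
Rpl39l, chr16:10170218-10170247, plus strand: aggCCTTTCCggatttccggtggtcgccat
Rpl36al, chr12:69184048-69184077, minus strand: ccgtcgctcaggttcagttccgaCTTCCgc
Rpl7l1, chr17:46782637-46782666, minus strand: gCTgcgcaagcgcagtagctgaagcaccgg
Rps19bp1, chr15:80264287-80264316, minus strand: cggaagtagCTCgccgcgtgtgggcggggc

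Rps18, Rps10 and Rps27 hold runs of 11, 13 and 9 pyrimidines that span or reach the start. Canonical Rpl39 holds a run of 8 and the paralog Rpl22l1 a run of 10, both after the start. Canonical Rpl36a and its paralog Rpl36al both hold runs of 5. In Rps27l, for which the first of 2 listed starts is shown, and Rpl39l the run of 7 lies before the start, and Rpl7l1 and Rps19bp1 hold runs of 2 and 3. Among the 250 bases before the start, on both strands, CTTCCGG, the core letters bound by ETS factors, stood in 28.8% of the 66 genes and in 7.77% of other genes. CTTTGAT, a form of the letters bound by the TCF and LEF partners of β-catenin, stood in 0 of 66 and in 3.73% of other genes, which says only that these letters are not in these windows. CACGTG, the E-box bound by Myc, stood in 7.58% and 6.86%. TATAAA stood in 6.06% and 14.3%.

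The question put to these genes was whether stabilized β-catenin changed their transcript levels. Ribosomal protein transcripts took 8.69%, 5.83% and 5.50% of all fragments in the Control libraries 0, 1 and 2 (mean 6.67% ± 1.75, SD, n = 3) and 4.24%, 4.75% and 5.66% in the GOF libraries (mean 4.88% ± 0.718). GOF replicate 2 lay above Control replicate 2, so the groups overlapped, and the difference of -1.79 percentage points had an exact permutation p of 0.20 (two-sided), where 3 against 3 libraries cannot go below 0.10. Without Control replicate 0 the difference was -0.784 points. As a share of the FPKM of all protein-coding genes, which weighs transcripts per length, the members took 25.02%, 19.6% and 19.3% in the Control libraries against 15.3%, 15.96% and 18.0% in the GOF libraries, without overlap (exact permutation p = 0.10). Both totals include genes whose estimate failed in 1 group and was listed at 0 there, such as Actb in the GOF libraries and Col3a1 in the Control libraries. The totals are thus not fully alike between the groups. In both animals that gave a culture to each group the share of fragments was lower in the GOF culture, 5.66% against 8.69% in one and 4.24% against 5.50% in the other. In bulk RNA, fewer cells of a type and less RNA per cell cannot be told apart.

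**Figure D1:**
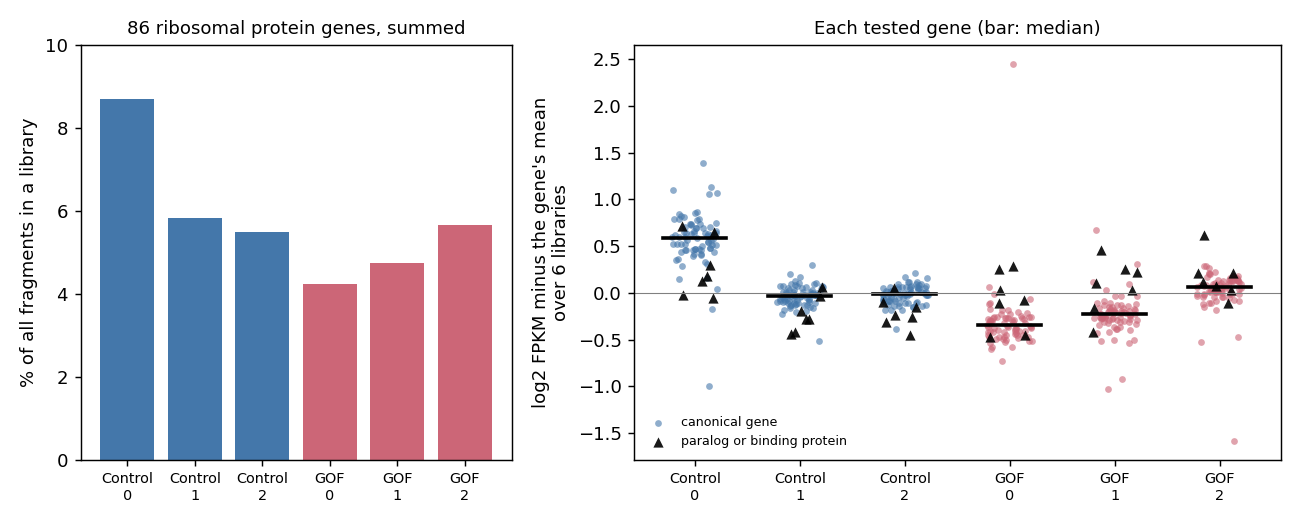
Left, percent of all fragments (vertical axis) that fell in the 86 ribosomal protein genes in each library, Control in blue and GOF in red. Right, log2 FPKM of each of 84 tested genes minus its mean over the 6 libraries, with circles for canonical genes, black triangles for paralogs and the binding protein, and a bar at the median. Control replicate 0, with 8.69% of fragments, stands above the other 5 libraries, which lie between 4.24% and 5.83%.

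The libraries of one animal stood high in both groups. Control replicate 0 had the highest FPKM of the 3 Control libraries for 81 of the 84 members tested, and GOF replicate 2, from the same animal, had the highest of the GOF libraries for 75. The median deviation of the members from their own mean was 0.62, 0.02 and -0.07 in the Control libraries and -0.39, -0.22 and 0.04 in the GOF libraries. It is in log2 CPM, fragments scaled to TMM-adjusted library size and not to length. Control replicate 0 also carried 1.66% of its fragments in ribozyme genes, against 0.114% to 0.535% in the other libraries. Short transcripts as a whole stood higher in it. Among 4082 other coding genes with a mean of at least 50 CPM, the 817 shortest had a median deviation of 0.24 in Control replicate 0 and the 817 longest -0.25, and 82 of the 84 members were as short as the former. Between the groups, the 817 shortest and the 817 longest had median log2 fold changes of 0.05 and 0.09. The part of RNA quality or library preparation in the members' difference was not tested.

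Gene by gene, 84 of the 86 members had enough fragments to be tested. Rpl10l, a testis paralog of Rpl10, had 0 fragments in every library, and Rpl3l, the striated-muscle paralog of Rpl3, at most 3. By edgeR's quasi-likelihood test with Benjamini-Hochberg adjustment over all 15462 genes tested, 0 members were called lower in GOF, where 10.2% of all genes were, and 0 were called higher, where 11.1% were. At an unadjusted p under 0.05 there were 13 lower (all genes, 17.3%) and 1 higher (all genes, 17.6%), and DESeq2 called 2 lower (Rps18 and Rpl10a; all genes, 10.6%) and 0 higher (all genes, 12.2%). No member combined an adjusted p under 0.05 with a more than 2-fold change, as 12.3% of all genes did.

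The members nevertheless lay on one side. Their log2 fold change was negative for 78 of 84, against 51.5% of all genes, with a median of -0.42 where that of all genes was -0.02, and the members' quartiles lay at -0.50 and -0.31. The small-subunit symbols (31 of 34 negative, median -0.41) and the large-subunit symbols (47 of 50, median -0.42) had nearly the same values. Without Control replicate 0 the median over the members was -0.17. The levels of all GOF libraries were below all Control libraries for 15 members (17.9%; all genes, 19.2%) and above them for 1, Rps19bp1 (all genes, 20.3%). Within the 2 animals that gave both cultures, 78 members (92.9%) were lower in the GOF culture both times, as 38.2% of all genes were. Their median difference in log2 CPM was -0.57 in the animal of Control replicate 0 and -0.32 in the other.

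With the animal as a block, edgeR called 17 of the 84 members lower (20.2%; all genes, 9.91%) and 0 higher (all genes, 11.4%), and the median log2 fold change was -0.43. That fit rests on the 2 animals with both cultures and has 1 residual degree of freedom per gene before edgeR shares the spread between genes. The 17 genes were Rpl10a, Rpl12, Rpl15, Rpl18, Rpl22l1, Rpl31, Rpl32, Rpl34, Rpl36, Rpl36a, Rpl39 and Rplp1 of the large subunit and Rps4x, Rps7, Rps10, Rps14 and Rps27 of the small subunit. Without Control replicate 0 and GOF replicate 2, the fit without a block called 21 members lower (25%; all genes, 14.4%) and 4 higher (all genes, 16.2%), of which 10 of the 21 were among the 17. The median was then -0.28. Without Control replicate 2 and GOF replicate 0 it called 0 in either direction, where 2.14% of all genes were called lower and 3.18% higher, and the median was -0.45.

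**Figure D2:**
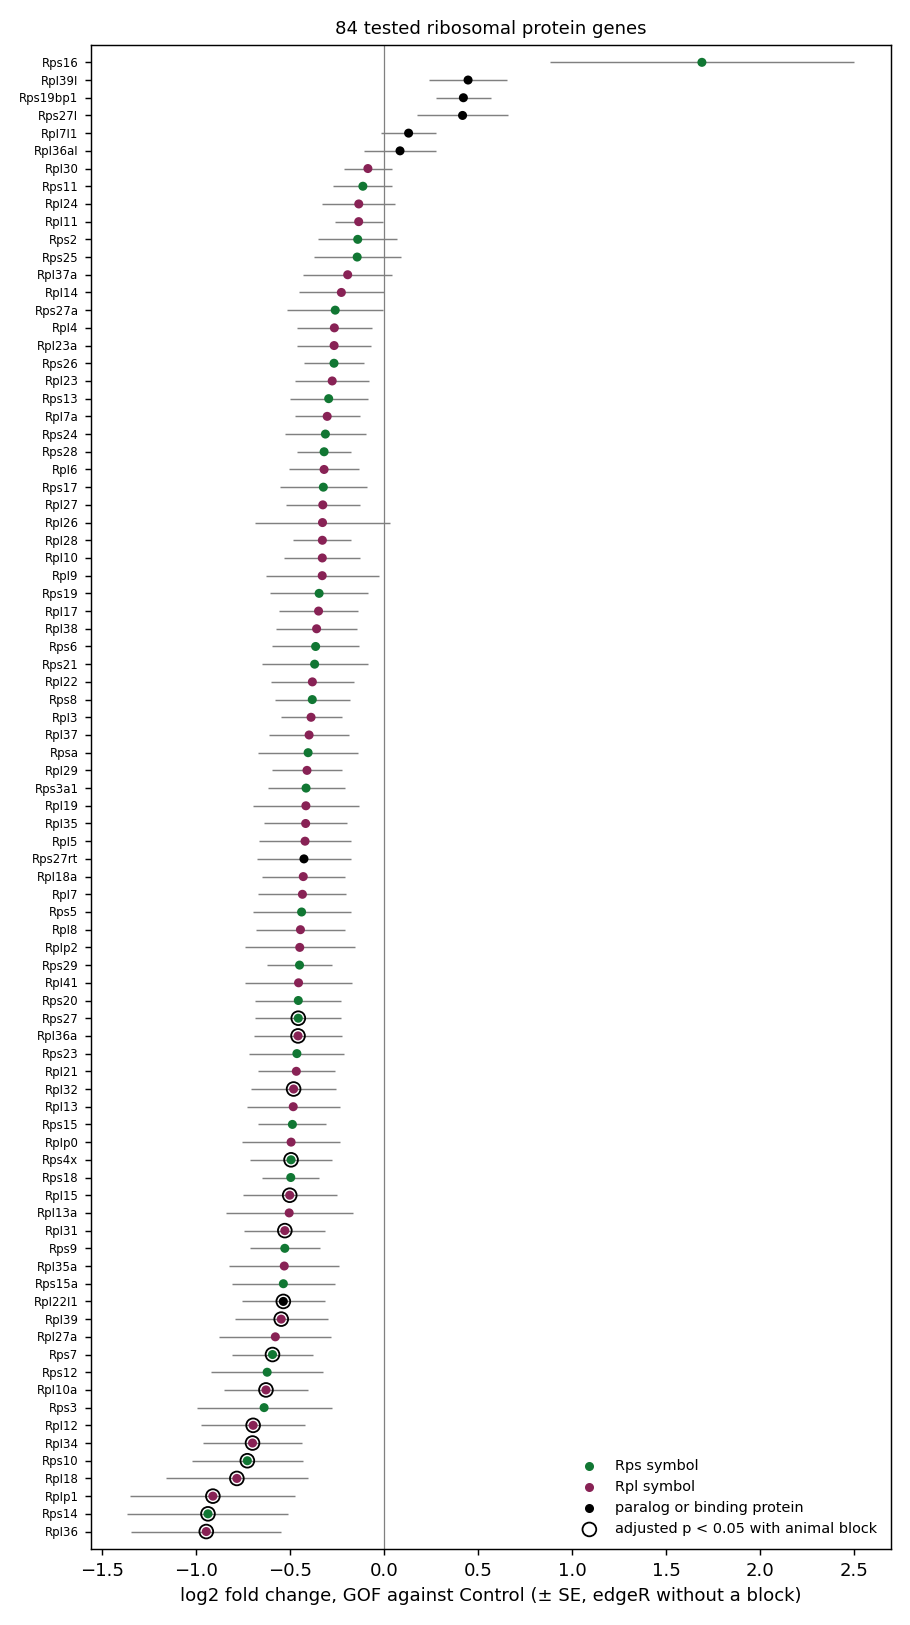
log2 fold change of GOF against Control (horizontal axis, edgeR without a block, bars ± SE) for each of 84 tested ribosomal protein genes, sorted; green for Rps and purple for Rpl symbols, black for paralogs and the binding protein, and a ring for the 17 genes with an adjusted p under 0.05 when the animal was a block. Of the 84 genes 78 lie left of 0, and the genes right of 0 are Rps16 and 5 of the 7 tested paralogs and binding protein.

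The members nearest to a call and furthest from 0 were these. Rps18, a protein of the small-subunit head, was at 1025, 906 and 909 FPKM in the Control libraries and 709, 785 and 582 FPKM in the GOF libraries. All GOF levels lay below all Control levels, and its log2 fold change of -0.50 ± 0.15 (SE) had the smallest adjusted p among the members, 0.054 by edgeR (0.051 with the animal block). Rps10, whose human counterpart is mutated in some families with Diamond-Blackfan anemia, was at 1388, 818 and 801 FPKM against 529, 528 and 791 FPKM. GOF replicate 2 reached almost to the lowest Control library without overlapping it, and the log2 fold change was -0.73 ± 0.29 (edgeR, adjusted p = 0.12; with the animal block -0.68, adjusted p = 0.022).

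Rpl36, of the large subunit, had the most negative log2 fold change, -0.95 ± 0.40 (edgeR, adjusted p = 0.14; with the animal block -0.74, adjusted p = 0.013). It was at 1311, 770 and 626 FPKM in the Control libraries and 413, 330 and 703 FPKM in the GOF libraries. GOF replicate 2 lay above the lowest Control library, and without it the log2 fold change was -1.40 with an adjusted p of 0.041 by edgeR.

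Rps14 and Rpl18 showed how far a single library could carry a value. Rps14, encoded by a gene that is lost in the human 5q- syndrome, was at 2453, 838 and 841 FPKM in the Control libraries and 625, 697 and 889 FPKM in the GOF libraries. Rpl18 was at 2168, 939 and 933 FPKM against 725, 768 and 988 FPKM. In both genes Control replicate 0 was far above the other Control libraries, and GOF replicate 2 lay above the latter. Their log2 fold changes of -0.94 ± 0.43 and -0.78 ± 0.38 had adjusted p of 0.16 and 0.19 by edgeR, and without Control replicate 0 and GOF replicate 2 they were -0.40 and -0.45.

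The P-stalk proteins Rplp0, Rplp1 and Rplp2 carry elongation factors to the ribosome. Rplp1 had the highest mean level of all members, with 7519, 3946 and 3353 FPKM in the Control libraries and 2440, 1686 and 3977 FPKM in the GOF libraries. The groups overlapped, and its log2 fold change was -0.91 ± 0.44 (edgeR, adjusted p = 0.19; with the animal block -0.69, adjusted p = 0.046). Rplp0 (2537, 1598 and 1615 FPKM against 1263, 1225 and 1715 FPKM) and Rplp2 (1256, 891 and 848 FPKM against 753, 780 and 1018 FPKM) had log2 fold changes of -0.50 and -0.45 and were not called with or without the block. Rpsa, the small-subunit protein also known as the laminin receptor precursor, had -0.40 and was not called either.

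Next to Rplp1, the highest mean levels per length were those of Rpl41 (2435 FPKM over the 6 libraries), Rps12 (2260), Rpl13a (2241) and Rps27rt (1920). Of the canonical genes, all but Rps16 had a mean of at least 477 FPKM, that of Rpl11. Across all protein-coding genes 230 had a listed mean above 300 FPKM, and 78 of them were members. The count leaves out genes listed at 0 because their estimate failed, such as Eef1a1. None of the 4 genes named with Rplp1 was called with or without the animal block.

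Rpl5, Rpl11 and Rpl23 can bind Mdm2, the ligase that degrades p53, when ribosome assembly is disturbed, and Rps6 is the substrate of the S6 kinases. Rpl11 was the canonical gene of these nearest to 0, at 527, 441 and 497 FPKM against 470, 507 and 417 FPKM. The groups overlapped and the log2 fold change was -0.14 ± 0.13 (edgeR, adjusted p = 0.49). Rpl5 (-0.42), Rpl23 (-0.28) and Rps6 (-0.37) were not called with or without the block. Rps4x, which in humans has a copy on the Y chromosome, was at 1863, 1293 and 1280 FPKM against 862, 1042 and 1263 FPKM, with all GOF levels below all Control levels (log2 fold change -0.50 ± 0.22, edgeR adjusted p = 0.15; with the animal block -0.60, adjusted p = 0.049).

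Rpl32 was one of the reference genes against which the study's qPCR was scaled. It was at 2469, 1478 and 1722 FPKM in the Control libraries and 1169, 1320 and 1658 FPKM in the GOF libraries. GOF replicate 2 lay above Control replicate 1, so the groups overlapped, with a log2 fold change of -0.48 ± 0.23 (edgeR, adjusted p = 0.18), and with the animal block of -0.59 ± 0.16 (adjusted p = 0.042). Of the other reference genes, Hprt was at 31.4 to 41.5 FPKM in the Control libraries and at 83.6 to 96.2 FPKM in the GOF libraries, and rose (log2 fold change 1.36 ± 0.14, edgeR, adjusted p = 0.00091). Actb could not be compared, since Cuffdiff gave no estimate for it in the GOF libraries.

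Rps16 was the only canonical gene with a positive log2 fold change, and it stood apart in level as well. It was at 23.9, 33.2 and 46.8 FPKM in the Control libraries and 261, 75.7 and 15.9 FPKM in the GOF libraries. GOF replicate 0 was the highest and GOF replicate 2 the lowest of the 6, so that the log2 fold change of 1.69 ± 0.81 (edgeR, adjusted p = 0.18) described no common direction. Its levels lay below the 477 FPKM of the next canonical gene, in a family whose proteins are needed in near-equal numbers. Whether the reads of Rps16 were assigned to other rows was not tested.

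Of 77 canonical genes tested 76 had a negative log2 fold change (median -0.42). Of the 7 other members tested 2 did (median 0.13), namely Rpl22l1 and Rps27rt, and with the animal block 4 did, with Rpl36al (-0.0060) and Rpl7l1 (-0.013) now just below 0. The difference between canonical genes and their relatives was not tested, and no relative was called without a block. The ratio of a paralog to its partner in the same library does not depend on how libraries are scaled to each other. Whether the trend with transcript length in Control replicate 0 entered this ratio was not tested. Comparisons were planned for 5 pairs of a paralog and its partner. A further pair, Rps27rt with Rps27, was added after the data were seen, and p-values from exact permutation tests were adjusted over all 6. In each of the 5 planned pairs the GOF ratios lay outside the range of the Control ratios, with a raw p of 0.10, the smallest that 3 against 3 libraries can give, and an adjusted p of 0.12. In the pair of Rps27rt and Rps27 the groups overlapped, at 1.66, 1.65 and 1.60 in the Control libraries and 1.66, 1.68 and 1.67 in the GOF libraries (0.03 on the log2 scale, raw and adjusted exact p = 0.20). None of the 6 passed 0.05. By level, every GOF library lay below every Control library for 19.2% of all genes and above for 20.3%. How often ratios of other gene pairs separate the groups was not computed.

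Rps27l is a p53-induced relative of Rps27 that differs from it near its amino terminus. It was at 0.423, 0.470 and 0.463 of the FPKM of Rps27 in the Control libraries and at 0.854, 0.707 and 0.930 in the GOF libraries. This was a 1.83-fold higher ratio, or 0.87 on the log2 scale (SD of log2 ratios 0.08 in Control and 0.20 in GOF). By level, Rps27l was at 775, 514 and 502 FPKM against 701, 701 and 1052 FPKM, with a log2 fold change of 0.42 ± 0.24 (edgeR, adjusted p = 0.26; with the animal block 0.42, adjusted p = 0.080), while Rps27 was at 1833, 1095 and 1083 FPKM against 821, 992 and 1131 FPKM with -0.46 ± 0.23 (adjusted p = 0.20). Rps27rt is a retrotransposed copy of Rps27 at 1362 to 3051 FPKM, and reads that fit both may have been divided between them.

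Rpl36al, the relative of Rpl36a, was at 0.278, 0.314 and 0.316 of Rpl36a in the Control libraries and at 0.457, 0.437 and 0.427 in the GOF libraries. The ratio was 1.46-fold higher, or 0.54 on the log2 scale (SD 0.11 and 0.05). Its own level hardly differed, at 363, 242 and 250 FPKM against 274, 316 and 341 FPKM, with a log2 fold change of 0.08 that turned to -0.0060 with the animal block.

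Rpl39l, a relative of Rpl39 best known from the testis, was at 0.0153, 0.0227 and 0.0209 of Rpl39 in the Control libraries and at 0.0443, 0.0406 and 0.0265 in the GOF libraries. The ratio was 1.88-fold higher (0.91 on the log2 scale, SD 0.30 and 0.40). Its level was 30.9, 26.5 and 25.8 FPKM against 39.1, 44.2 and 29.8 FPKM, with overlapping groups and a log2 fold change of 0.45 ± 0.21 (edgeR, adjusted p = 0.17). With the animal block that was 0.21 (adjusted p = 0.55), and in the animal of Control replicate 0 the GOF culture was the lower one (-0.20 in log2 CPM) and in the other animal the higher one (0.61). Without GOF replicate 2 it was 0.63 and passed the test (edgeR, adjusted p = 0.043). The ratio of Rpl7l1 to Rpl7 was likewise higher in GOF, at 0.0470, 0.0493 and 0.0361 against 0.0257, 0.0321 and 0.0325, a 1.46-fold difference (0.55 on the log2 scale).

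Rpl22l1, a relative of Rpl22 whose transcript Rpl22 can repress, went the other way. It was at 0.340, 0.404 and 0.395 of Rpl22 in the Control libraries and at 0.296, 0.277 and 0.322 in the GOF libraries, a ratio 0.787 times that of the Control libraries (-0.35 on the log2 scale, SD 0.13 and 0.11). Within the animal of Control replicate 0 the log2 difference was -0.08 and within the other -0.41. Its level was 337, 224 and 222 FPKM against 154, 161 and 233 FPKM (log2 fold change -0.54 ± 0.22, edgeR adjusted p = 0.13; with the animal block -0.59, adjusted p = 0.025). Rps19bp1, at 19.9, 14.8 and 16.8 FPKM against 24.1, 24.0 and 23.4 FPKM, was higher in every GOF library than in every Control library, with a log2 fold change of 0.42 ± 0.15 (edgeR, adjusted p = 0.082; with the animal block 0.37, adjusted p = 0.20). It passed the test without Control replicate 0 (0.55, adjusted p = 0.020).

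**Figure D3:**
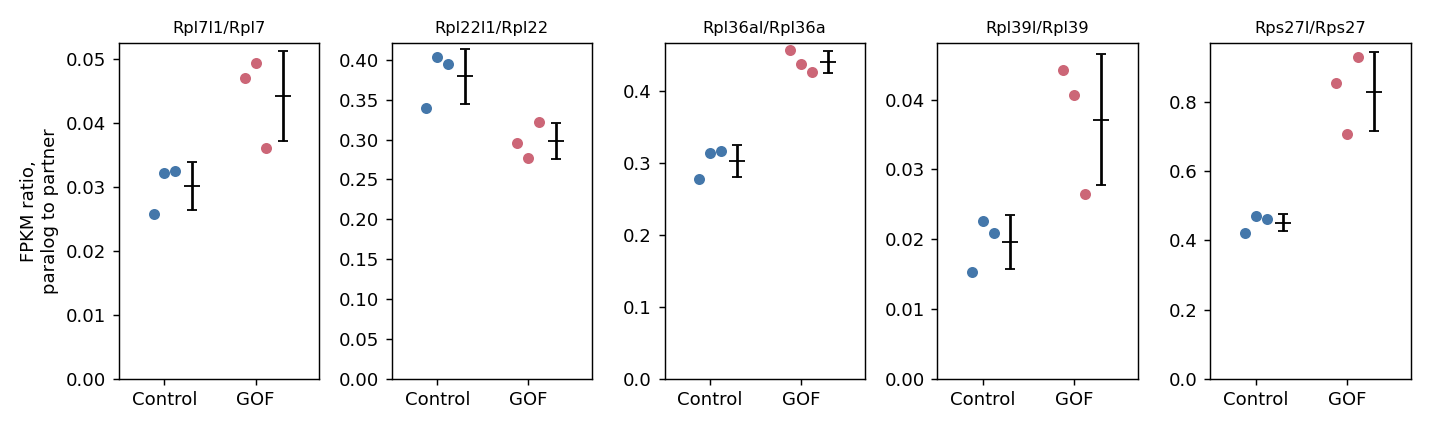
FPKM of a paralog divided by the FPKM of its partner in the same library (vertical axes, each from 0), with a point for each Control (blue) and GOF (red) library and black bars at the mean ± SD (n = 3). For Rps27l/Rps27 the Control points lie at 0.423 to 0.470 and the GOF points at 0.707 to 0.930; in Rpl22l1/Rpl22 alone the GOF points are the lower ones.

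The pyrimidine runs in the windows of all genes with a listed start, most of them not printed, can be set beside the fold changes as a description. Such a run may lie anywhere in the window, before or after the start, and need not be a TOP tract. The 33 tested genes with a run of at least 7 pyrimidines had a median log2 fold change of -0.50, and the 31 tested genes with a listed start and no such run -0.33.

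Near-identical copies of these genes limit what a single row means. Blast found 735 rows of annotated pseudogenes that matched the transcript of 80 of the members at 90% identity or more over at least 80% of the pseudogene, 561 of which had under 10 fragments in every library. All of them together held 0.781% to 1.35% as many fragments as the members, but 12 of the rows reached 500 fragments in a library, and several of these followed the animal and not the group. Gm15772, on chromosome 5 (3236431 to 3236868, plus strand, GRCm38), differs from the Rpl26 transcript at 2 of 438 aligned bases. The windows around both positions are shown because those letters, in capitals, are the only ones that differ within the 438 aligned bases. Bases outside the aligned stretch were not compared.
Rpl26, at aligned position 177: gttcaggttgttcgCggacactacaaagg
Gm15772, at aligned position 177: gttcaggttgttcgTggacactacaaagg
Rpl26, at aligned position 288: ggcacaaccgtccaTgtgggcatccaccc
Gm15772, at aligned position 288: ggcacaaccgtccaCgtgggcatccaccc

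Gm15772 had 172, 115 and 7381 fragments in the Control libraries and 6115, 126 and 154 in the GOF libraries. The high counts were those of Control replicate 2 and GOF replicate 0, the cultures of one animal, where the row held 28.5% and 29.2% of its sum with Rpl26, against 0.403% to 0.504% elsewhere. Rps2-ps10, which matches Rps2 at 99.4%, had 8362, 3078 and 3358 fragments against 3414, 3668 and 7584, and here the cultures of the other animal, Control replicate 0 and GOF replicate 2, were the high ones. Gm6472, which matches Rps7 at 99.4%, ranged from 200 fragments in Control replicate 1 to 4861 in Control replicate 0. Gm6436, which matches Rps18 at 94.3%, had 2518, 800 and 700 against 490, 418 and 1572, again with the highest count of each group in that animal.

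With the fragments of all 735 rows added to the members they match, edgeR called 1 member lower (all genes, 10.4%) and 0 higher (all genes, 11%), and with the rows that carry a member's symbol and -ps it called 0 in either direction (all genes, 10.2% lower and 11.1% higher).

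**Figure D4:**
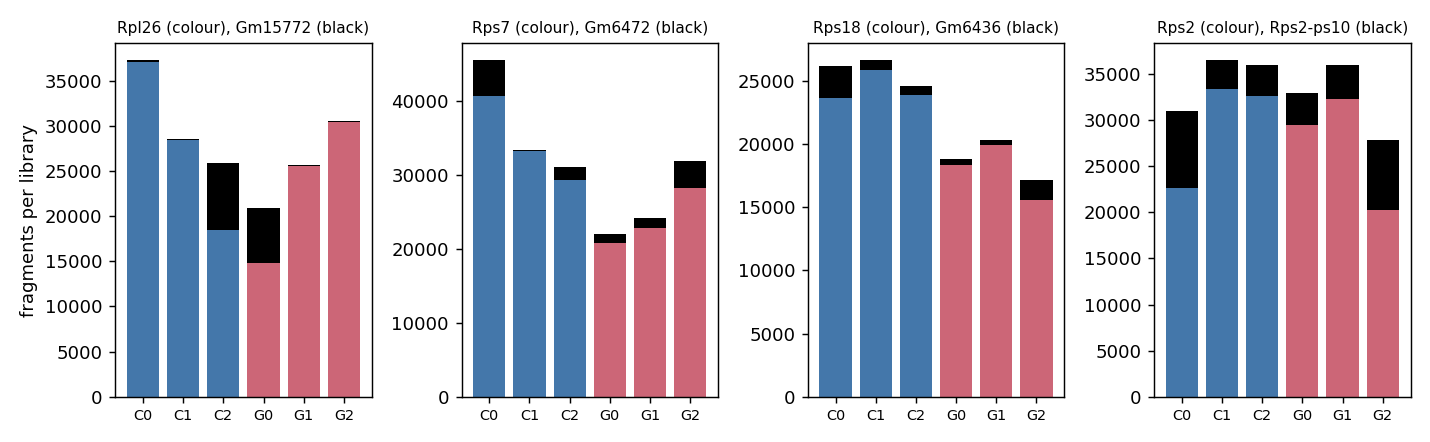
Fragments per library (vertical axes, from 0) in 4 members (colour; Control C0 to C2 in blue, GOF G0 to G2 in red) and in a pseudogene row that matches each (black, stacked). The Gm15772 part is visible only in C2 and G0, at 7381 and 6115 fragments, and the Rps2-ps10 part is largest in C0 and G2, at 8362 and 7584.

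Other genes of the pathway were described by lists. Of the 19 tested genes outside the family whose messenger RNAs also carry a TOP tract, 14 had a negative log2 fold change, with a median of -0.27. By the fit without a block 2 were called, both higher: Vim, which encodes vimentin (0.70), and Nap1l1, a histone chaperone (0.48). With the animal block Vim was still called (0.87), Nap1l1 was not (adjusted p = 0.12), and Tpt1, which encodes a growth-related protein, was called lower (-0.69, adjusted p = 0.046). The medians of this list by library were 0.45, -0.03 and -0.12 in the Control libraries and -0.25, -0.11 and 0.03 in the GOF libraries, so that Control replicate 0 was again the highest. Eef1a1, an elongation factor with a TOP tract, was listed at 0 in every library because its estimate failed.

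The 77 mitochondrial ribosomal protein genes, which serve the other ribosome of the cell, had a median of 0.00, with 38 negative. Among these 0 were called higher and 1 lower, Mrpl24 (-0.68), joined with the animal block by Mrps6 (-0.77). Their medians by library, 0.27, -0.13 and -0.21 against -0.12, 0.05 and 0.09, placed Control replicate 0 highest too, but did not place the GOF libraries below the other 2 Control libraries. Of the 35 translation initiation factors 5 rose and 0 fell (median 0.22). Of these, 4 encode subunits of eIF2B, the exchange factor that reloads eIF2: Eif2b2 (1.15), Eif2b5 (0.93), Eif2b3 (0.91) and Eif2b1 (0.45), and the remaining gene was Eif2s2 (0.66), a subunit of eIF2. All but Eif2b1 (adjusted p = 0.13) were also called with the animal block. Eif2b2 was at 29.8, 21.2 and 17.8 FPKM against 48.5, 53.9 and 40.3 FPKM, without overlap.

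Of 59 ribosome biogenesis genes 4 rose and 0 fell (median 0.17): Brix1 (0.72), Utp20 (0.58), Utp4 (0.47) and Heatr1 (0.38), which act in the assembly of the subunits. With the animal block Utp4 (adjusted p = 0.070) and Heatr1 (0.093) were not called, while Bms1 (0.67) and Rrp12 (0.77) were, both higher. Of 16 genes of RNA polymerase I and its factors, which make the ribosomal RNA, 2 rose, Polr1e (0.78) and Polr1a (0.39), and 1 fell, Ubtf (-0.35). With the animal block only Polr1e of these was called, with adjusted p of 0.059 for Polr1a and 0.076 for Ubtf. Of 9 elongation genes tested 1 fell, Eef2k (-1.14), the kinase that inhibits elongation factor 2, and with the animal block Gspt1, a termination factor, was called higher as well (0.45). In the Myc family Mycl rose (1.40) and Mxd3 fell (-1.05), while Myc itself was not called (-0.03). Among 12 genes of mTOR signaling and TOP regulation 2 fell, Deptor (-1.38), an mTOR inhibitor, and Rps6kb1 (-0.45), which encodes an S6 kinase. The calls in the Myc and mTOR lists were the same genes with the animal block. Mycl, Mxd3 and Deptor were at low levels, at most 3.76, 5.26 and 1.30 FPKM in any library. All calls were edgeR's at an adjusted p under 0.05 without a block unless the block is named, against the 10.2% lower and 11.1% higher among all genes, and the values are log2 fold changes.

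**Figure D5:**
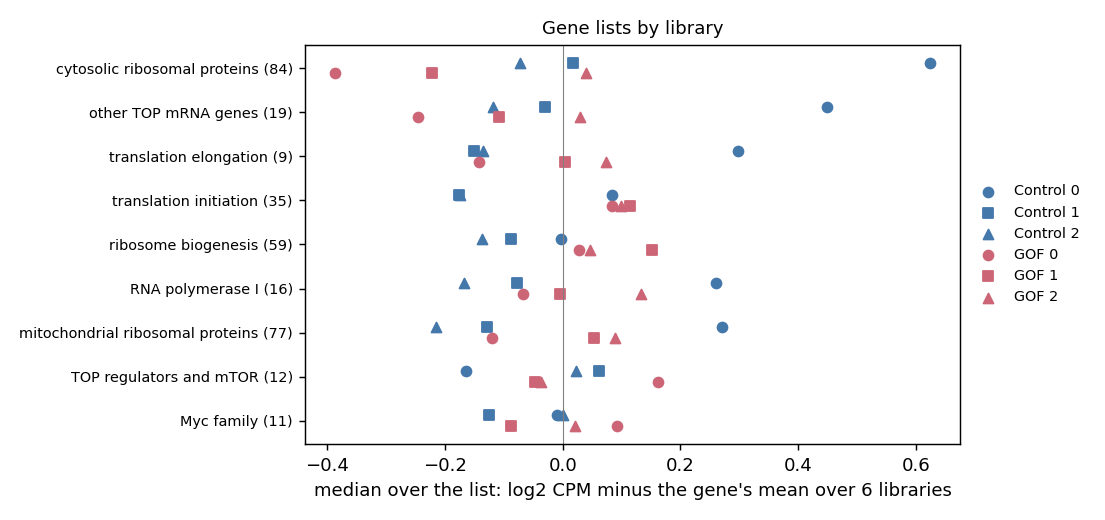
Median over each gene list (rows, number of tested genes in parentheses) of log2 CPM minus the mean of each gene over 6 libraries (horizontal axis), by library; Control in blue and GOF in red, with a circle, square and triangle for replicates 0, 1 and 2. For the cytosolic ribosomal proteins the values run from -0.39 in GOF replicate 0 to 0.62 in Control replicate 0.

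Markers of other cell types were low in all libraries, with 1 of 6 keratinocyte, 1 of 4 skeletal muscle and 0 of 3 adipocyte genes expressed highly enough to be tested. Their summed levels were at most 1.29 FPKM in any library for each of these 3 lists. The summed level of the 4 endothelial genes was 3.33 to 4.11 FPKM in the Control libraries and 0.958 to 3.83 FPKM in the GOF libraries, that of the 4 leukocyte genes 2.40 to 3.33 against 4.33 to 7.54 FPKM, and that of the 5 melanocyte and Schwann cell genes 6.94 to 9.35 against 1.53 to 4.20 FPKM. Pax7 of muscle was at 0 in every library, and Dct of melanocytes in 4 of 6. Of those tested for endothelium (4), leukocytes (4) and melanocytes or Schwann cells (3), Csf1r was called higher and Tek and Mlana lower. Of 8 fibroblast markers tested Dcn, Fn1 and Col1a2 fell and Vim rose, and with the animal block Pdgfra and Lum were called lower too. Of all genes 10.2% were called lower and 11.1% higher without a block, and 9.91% and 11.4% with the animal block. The part of a change in cell makeup in the members' values was not tested.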

How the data were processed

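The authors sequenced stranded paired-end libraries of 3 Control and 3 GOF cultures, aligned them to mm10 using TopHat and quantified genes using Cuffdiff (versions not given in the sources used here). The estimated counts, deposited by the authors, are unscaled fragments per gene and library. FPKM were deposited after Cuffdiff scaled these by transcript length and between libraries. Whether counting used strand is not stated. Of 41126 rows, 32 whose estimate failed in a library were left out of all gene-by-gene fits. The printed shares of fragments and of FPKM use totals over all rows, those 32 included. The table of lncRNAs was not used.

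Names and positions came from GENCODE M21 (GRCm38, which is mm10) for 97.9% of rows. Estimated counts (4.95% not whole) were rounded and analysed with edgeR 4.0.16 (TMM, filterByExpr, quasi-likelihood test, Benjamini-Hochberg adjustment over all genes) in R 4.3.3. Other fits used DESeq2 1.42.0 and limma 3.58.1, with log2(FPKM + 1) or log2(FPKM + 0.1) for the latter. Deviations and differences between libraries are on log2(CPM + 0.5), with library sizes adjusted by the TMM factors. Shares and paralog ratios were compared with two-sided exact permutation tests. Further alternatives were library totals, upper quartiles, TMM from other coding genes, 2 other filters on low values, pseudogene rows added, replicate blocks and each library left out. Those chosen after seeing the data were pseudogene rows matched by sequence, a correlation within animals, leaving out both libraries of an animal, totals without failed rows, and the pair of Rps27rt and Rps27.

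Same-numbered libraries come from different animals. The titles pair libraries by animal instead, and deviations from the group means correlated at 0.41 and 0.50 across 15462 genes in the 2 animals with both cultures. Cultures of an animal are not independent, so p-values of the fit without a block treat them as if they were.

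The members, gene lists and tests were chosen with earlier results of these data known. Genes named are those called, the 5 largest and 5 smallest log2 fold changes, the 5 highest and 5 lowest mean FPKM among tested members, all paralogs with their partners, P-stalk genes, Rpsa, Rps4x, Rps6, Rps19bp1, Rpl5, Rpl11, Rpl23, the qPCR reference genes and up to 3 called genes per list. Rps18, Rpl10a, the other genes called with a block, the pseudogene rows and further genes of a list were named after their values were seen. On simulated data for 15248 genes, edgeR called 76 of 98 genes changed by 2 and 17 of 97 changed by 0.8 on the log2 scale, and 5 of 15053 unchanged genes. The simulated libraries were independent and shared no animals, unlike the real ones, so these counts do not cover that dependence. Depth was 35980831 to 42834467 fragments per library.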

Additional observations from a re-analysis of the deposited data

How the results depend on the processing

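The members called lower, 0 without a block, were 2 with DESeq2 (all genes, 10.6%) and with library totals (11.5%), 1 with upper quartiles (11.7%), with TMM from other coding genes (10.5%) and with pseudogene rows matched by sequence (10.4%), 17 with the replicate block by animal (9.91%), 20 with a correlation between cultures of an animal (16.3%) and 21 without Control replicate 0 and GOF replicate 2 (14.4%). The members called higher, also 0, were 1 with limma on log2(FPKM + 1) (all genes, 9.62%), 1 with the correlation (16.8%) and 4 without those 2 libraries (16.2%). Leaving out 1 library at a time gave 0 to 2 lower and 0 to 2 higher, both 2 without GOF replicate 2 (all genes, 8.35% lower and 10.3% higher), and 2 higher without Control replicate 0 (11.9%). Past both thresholds there were 0 members (all genes, 12.3%), but 0 to 2 with a library left out, with 2 without GOF replicate 2 (all genes, 11.9%). Without both Control replicate 0 and GOF replicate 2 there was 1 (all genes, 13.6%). The replicate block by label number, whose libraries share no animal, called 0 members in either direction (all genes, 4.92% lower and 6.05% higher). The median log2 fold change of the members stayed negative in every alternative, between -0.55 and -0.17 with a library left out, and that of each subunit, the share of fragments and the 5 paralog ratios kept their direction in all alternatives run. Of 32 named members tested, Rpl36al turned from 0.08 to -0.0060 with the animal block and lay between -0.032 and 0.31 with a library left out (-0.011 without Control replicate 1, -0.032 without Control replicate 2), and Rpl7l1 turned from 0.13 to -0.013 with the animal block. Of the 672 further fits of these members, 4 reversed in this way, 38 passed the threshold where the fit without a block did not, and 630 changed neither direction nor side. The causes were not tested. The design has 3 libraries a group, and how much of the spread is counting error was not computed.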

Other observations

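The annotation lists 6 further rows with symbols of this family that it types as processed pseudogenes and that the members leave out. Rps4l, related to Rps4x, was the most abundant of them, at 39.2, 29.1 and 28.1 FPKM in the Control libraries and 34.9, 22.9 and 33.5 FPKM in the GOF libraries, with overlapping groups and a log2 fold change of -0.13 (edgeR, adjusted p = 0.73). Rps3a2 (-0.36), Rps3a3 (-0.57), Rpl37rt (-0.32) and Rpl6l (-0.15) were not called either, and Rps12l1 had 0 fragments in every library. All 5 tested rows thus had negative values, as 51.5% of all genes did.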
